A study of Mus musculus with 30 samples.

Results

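The 10 interferon-stimulated genes *Oasl1*, *Oasl2*, *Ifit1*, *Ifit3*, *Isg15*, *Mndal*, *Ifi204*, *Irf7*, *Usp18* and *Ifitm2* were followed in mHypoA-2/12 cells, an adult mouse hypothalamic line, after treatment with cannabidiol (CBD) or vehicle. The genes were chosen by symbol, with earlier results of these data known. Each symbol matched exactly 1 of the 56941 Ensembl genes in the count files. All 10 passed the filter on low counts at both times. RNA was sequenced from the 3′ ends of transcripts (QuantSeq 3′ mRNA-Seq). The 30 libraries, labelled A1 to A30, form 10 groups of 3. At 6 h, A1 to A3 are the vehicle, A13 to A15 received 0.325 µM of CBD, A10 to A12 received 0.75 µM, A7 to A9 received 1.5 µM and A4 to A6 received 3 µM. At 24 h, A28 to A30 are the vehicle, A25 to A27 received 0.325 µM, A22 to A24 received 0.75 µM, A19 to A21 received 1.5 µM and A16 to A18 received 3 µM. Every group, vehicle included, was kept in DMEM with the same share of DMSO, the solvent of CBD, after a change from medium with serum. The cells are a single immortalized line, and nothing says whether the 3 libraries of a group came from separate cultures, so the p-values measure only the spread between these libraries, which may be technical. The question was whether CBD changed these genes, at which dose and at which time.

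Interferons are secreted proteins that warn cells of viruses. On the receiving cell, their receptors act through the JAK kinases and STAT proteins, which pair with IRF9. The complex binds the interferon-stimulated response element in the promoters of target genes. Products of these genes detect foreign nucleic acids, block translation of viral RNA, hinder viral entry or limit the signal itself. Many cells keep low levels of these RNAs without any infection.

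The element was searched in the 250 bases before the transcription start in RefSeq (GRCm38.p6, an older build than that of the counts). It was searched as GAAANNGAAA, in which N is any base, on both strands, where it reads TTTCNNTTTC on the other strand. The promoter table matched 8 of the 10 genes, with 9 windows because *Mndal* has a pair of starts. The element was found in 6 of these windows, for 5 genes (*Ifit1*, *Ifit3*, *Isg15*, *Mndal* and *Ifitm2*). Over all promoters, 978 of 32851 windows held it (2.98%), or 936 of 27025 genes (3.46%). The windows of *Isg15*, *Ifit1*, *Mndal*, *Oasl1* and *Oasl2* are shown because these genes were called at 6 h, and that of *Ifit3* because it holds the element in a gene that was not called, with the element in capitals and each sequence written 5′ to 3′ on the strand of its gene.
Isg15 (chr4:156200819-156201068, minus strand): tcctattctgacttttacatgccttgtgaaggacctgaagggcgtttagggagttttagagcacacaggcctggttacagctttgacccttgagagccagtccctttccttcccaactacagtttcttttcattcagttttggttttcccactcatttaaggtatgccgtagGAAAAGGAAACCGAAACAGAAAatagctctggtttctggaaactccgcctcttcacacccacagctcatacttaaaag
Ifit1 (chr19:34640639-34640888, plus strand): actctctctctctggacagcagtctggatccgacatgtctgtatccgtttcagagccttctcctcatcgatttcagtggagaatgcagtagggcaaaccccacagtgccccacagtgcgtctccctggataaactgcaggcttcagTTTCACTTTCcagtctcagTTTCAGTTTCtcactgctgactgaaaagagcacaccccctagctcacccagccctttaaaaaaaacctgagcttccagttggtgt
Ifit3 (chr19:34583279-34583528, plus strand): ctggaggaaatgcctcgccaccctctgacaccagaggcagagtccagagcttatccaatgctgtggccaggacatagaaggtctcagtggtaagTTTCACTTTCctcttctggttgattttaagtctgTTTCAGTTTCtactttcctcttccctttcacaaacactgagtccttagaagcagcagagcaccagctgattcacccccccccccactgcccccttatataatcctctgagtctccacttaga
Mndal (chr1:173879959-173880208, minus strand): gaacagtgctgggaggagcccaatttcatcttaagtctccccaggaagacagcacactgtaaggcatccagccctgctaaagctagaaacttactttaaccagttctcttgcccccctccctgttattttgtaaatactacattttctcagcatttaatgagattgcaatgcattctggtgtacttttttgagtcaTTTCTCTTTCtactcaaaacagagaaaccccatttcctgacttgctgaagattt
Oasl1 (chr5:114922990-114923239, plus strand): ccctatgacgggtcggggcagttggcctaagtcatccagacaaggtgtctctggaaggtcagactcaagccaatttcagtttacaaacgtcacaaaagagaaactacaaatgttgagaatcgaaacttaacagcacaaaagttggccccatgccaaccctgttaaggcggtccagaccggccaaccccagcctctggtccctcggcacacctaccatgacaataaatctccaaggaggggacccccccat
Oasl2 (chr5:114896684-114896933, plus strand): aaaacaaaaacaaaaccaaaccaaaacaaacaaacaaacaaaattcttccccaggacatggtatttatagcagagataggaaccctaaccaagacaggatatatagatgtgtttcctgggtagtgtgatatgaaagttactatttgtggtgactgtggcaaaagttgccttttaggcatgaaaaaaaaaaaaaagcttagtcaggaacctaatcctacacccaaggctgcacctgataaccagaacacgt
In *Isg15*, 3 matches overlapped in a single stretch, starting 78, 72 and 66 bases before the transcription start. *Ifit1* held 2 matches, which started 104 and 85 bases before its start, and *Ifit3* held 2, at 156 and 122 bases. The *Mndal* window printed here belongs to the downstream start and held 1 match at 54 bases. The windows of *Oasl1*, *Oasl2* and *Irf7* held none of these letters. A related element, the gamma-activated sequence (TTCNNNGAA), was found in 0 of the 9 windows and in 7.02% of all promoters. The matches are descriptions of sequence.

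**Figure D1:**
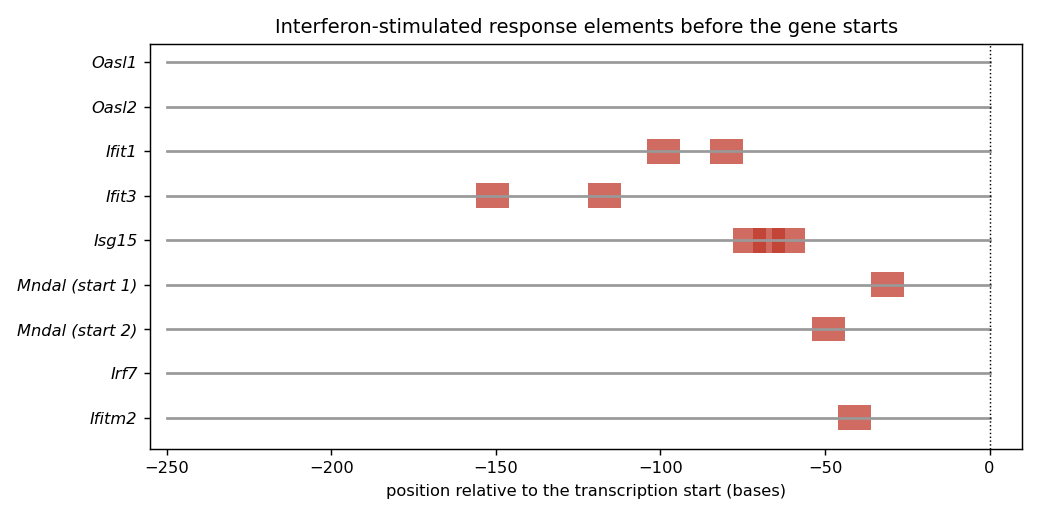
Matches to the interferon-stimulated response element (red boxes, on either strand) in the 250 bases before each transcription start, with the distance to the start in bases on the horizontal axis. Of the 9 windows, 6 hold a match, and the 3 matches of Isg15 overlap in a single stretch.

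Levels are CPM, the reads of a gene scaled to library size, TMM-normalized over the 15 libraries of a time. Reads on genes ranged from 1839621 to 4420675 per library, and the vehicle libraries A1 and A2 of 6 h were the shallowest (1839621 and 1919498 reads), against 3574833 in A3. The share of reads outside genes was 21.4% in A1, 20.8% in A2 and 17.9% in A3. The 10 genes had few reads each: *Usp18* had between 2 and 45 reads per library, *Isg15* between 7 and 51, *Ifit1* between 4 and 92, and *Mndal* between 60 and 336. Microglial *Itgam*, *C1qa* and *C1qb* were at 0 reads in every library, as were *Aqp4* and *Olig2* of glia, and *Aif1* and *Gfap* had 2 reads each in all. Of the 10 microglial markers, 5 had a mean of at least 1 CPM, with *Tmem119* at 243 CPM, *Cx3cr1* at 14.6 CPM, *Csf1r* at 11.4 CPM and *Cd68* at 4.41 CPM, and of the 8 glial markers 2 did, with *Slc1a3* at 3.5 CPM. Of 12 neuronal markers, 5 had a mean of at least 1 CPM, while all 10 mesenchymal markers did. At 6 h, the summed level of the mesenchymal list was 9164 to 9714 CPM in vehicle and 8457 to 10890 CPM in CBD-treated libraries. That of the microglial list was 156 to 268 CPM in vehicle and 197 to 370 CPM with CBD, and its part in the results was not tested. In bulk RNA, fewer cells that express a gene and less RNA per cell cannot be told apart.

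After 6 h, 5 of the 10 genes (*Oasl1*, *Oasl2*, *Ifit1*, *Isg15* and *Mndal*) fell in CBD-treated cells, with the 4 doses averaged, and none rose. Over all genes, 61 of 12012 were called lower (0.508%). A call here is a false discovery rate (FDR, the Benjamini-Hochberg adjusted p-value of the quasi-likelihood test of edgeR) below 0.1. The median log2 fold change, CBD against vehicle, was −1.18 over the 10 genes and −0.02 over all genes tested. The 10 genes were chosen with earlier results of these data known, so these shares and medians do not test whether the group differs from other genes. The 5 lower genes did not share a single pattern over the vehicle libraries. *Isg15* was higher in each vehicle library than in any CBD-treated library. *Oasl2* and *Ifit1* were so except against 0.75 µM libraries (A10 for *Oasl2*, A10 and A11 for *Ifit1*). *Oasl1* and *Mndal* were high in A1 and A2 and not in A3.

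*Isg15* encodes a small protein resembling ubiquitin that is attached to other proteins. In the 6 h vehicle it was at 14.9 CPM in A1, 22.7 CPM in A2 and 14 CPM in A3. In the 12 CBD-treated libraries it ranged from 2.74 to 13.3 CPM, with a median of 6.72 CPM. Every CBD-treated library lay below every vehicle library. The group means were 17.2 ± 4.78 CPM in vehicle (SD, n = 3), 3.77 ± 0.892 CPM at 0.325 µM, 10.6 ± 3.56 CPM at 0.75 µM, 6.42 ± 2.52 CPM at 1.5 µM and 6.33 ± 1.28 CPM at 3 µM. The log2 fold change over the 4 doses was −1.43 (standard error 0.28, FDR = 0.0161).

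*Usp18* encodes the protease that removes ISG15 from proteins and also restrains signalling from the type I interferon receptor. It was at 7.71, 7.92 and 5.77 CPM in A1, A2 and A3. With CBD it ranged from 0.791 to 5.16 CPM, with a median of 2.96 CPM, again without overlap. *Isg15* and *Usp18* were thus the genes among the 10 whose CBD-treated libraries all lay below the vehicle, as did 88 of the 12012 genes tested (0.733%). The log2 fold change of *Usp18* was −1.31 (standard error 0.40) and missed the threshold (FDR = 0.197), on 2 to 21 reads per library at 6 h.

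The OAS-like proteins are relatives of the oligoadenylate synthetases that sense double-stranded RNA. *Oasl2* was at 21.5 CPM in A1, 14.3 CPM in A2 and 20.6 CPM in A3, against 4.75 to 15.6 CPM (median 7.92 CPM) with CBD. Only the 0.75 µM library A10, at 15.55 CPM, lay above the lowest vehicle library. The log2 fold change of *Oasl2* was −1.15 (standard error 0.26, FDR = 0.0400). *Oasl1*, which lacks synthetase activity and is known to hold back translation of *Irf7*, was at 49.6 CPM in A1 and 45.9 CPM in A2 but at 8.51 CPM in A3. Its CBD-treated libraries ranged from 3.73 to 13.4 CPM (median 9.25 CPM), and A3 lay inside that range. Its log2 fold change was −1.94 (standard error 0.34, FDR = 0.00569).

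The IFIT proteins bind viral RNA, and *Ifit1* recognizes RNA that lacks the methyl marks of host caps. *Ifit1* was at 10.5, 14.8 and 17.3 CPM in A1, A2 and A3, against 1.70 to 14.75 CPM (median 5.94 CPM) with CBD. The 0.75 µM libraries A10 (12.2 CPM) and A11 (14.75 CPM) lay among the vehicle libraries, and the other 10 lay below them. Its log2 fold change was −1.21 (standard error 0.30, FDR = 0.0799). *Ifit3*, which partners other IFIT proteins, was at 2.20 CPM in A1, 4.22 CPM in A2 and 10.98 CPM in A3, and at 2.74 to 15.1 CPM (median 5.18 CPM) with CBD. Its highest levels of 6 h were in A11 (15.1 CPM) and A10 (14.4 CPM), and its lowest was in A1. The log2 fold change of *Ifit3* was 0.03 (standard error 0.45, interval from −0.86 to 0.91).

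*Mndal* and *Ifi204* belong to the PYHIN family, nuclear proteins that bind DNA, and lie on chromosome 1. *Mndal* was at 130.5 CPM in A1 and 177 CPM in A2, against 42.6 CPM in A3. With CBD it ranged from 27.5 to 55.5 CPM (median 39.3 CPM), so that A3 lay within the range of the treated libraries. Its log2 fold change was −1.53 (standard error 0.21, FDR = 0.000612). *Ifi204* was at 20.9, 22.2 and 16.5 CPM in vehicle and at 6.36 to 18.4 CPM (median 13.3 CPM) with CBD. For *Ifi204* the log2 fold change was −0.64 (standard error 0.21, FDR = 0.232).

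*Irf7*, the transcription factor that drives interferon production, was at 7.71, 8.44 and 7.41 CPM in the vehicle libraries. With CBD it ranged from 1.30 to 8.70 CPM (median 4.50 CPM), with A7 at 1.5 µM as the highest of all 15 libraries. For *Irf7* the log2 fold change was −0.74 (standard error 0.38, FDR = 0.524). *Ifitm2*, a membrane protein that hinders the entry of viruses, was at 146.5 and 128 CPM in A1 and A2 but at 69.2 CPM in A3, the lowest of 15 libraries. With CBD it ranged from 73.7 to 154 CPM (median 104 CPM), and its log2 fold change was −0.08 (standard error 0.17, FDR = 0.921).

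**Figure D2:**
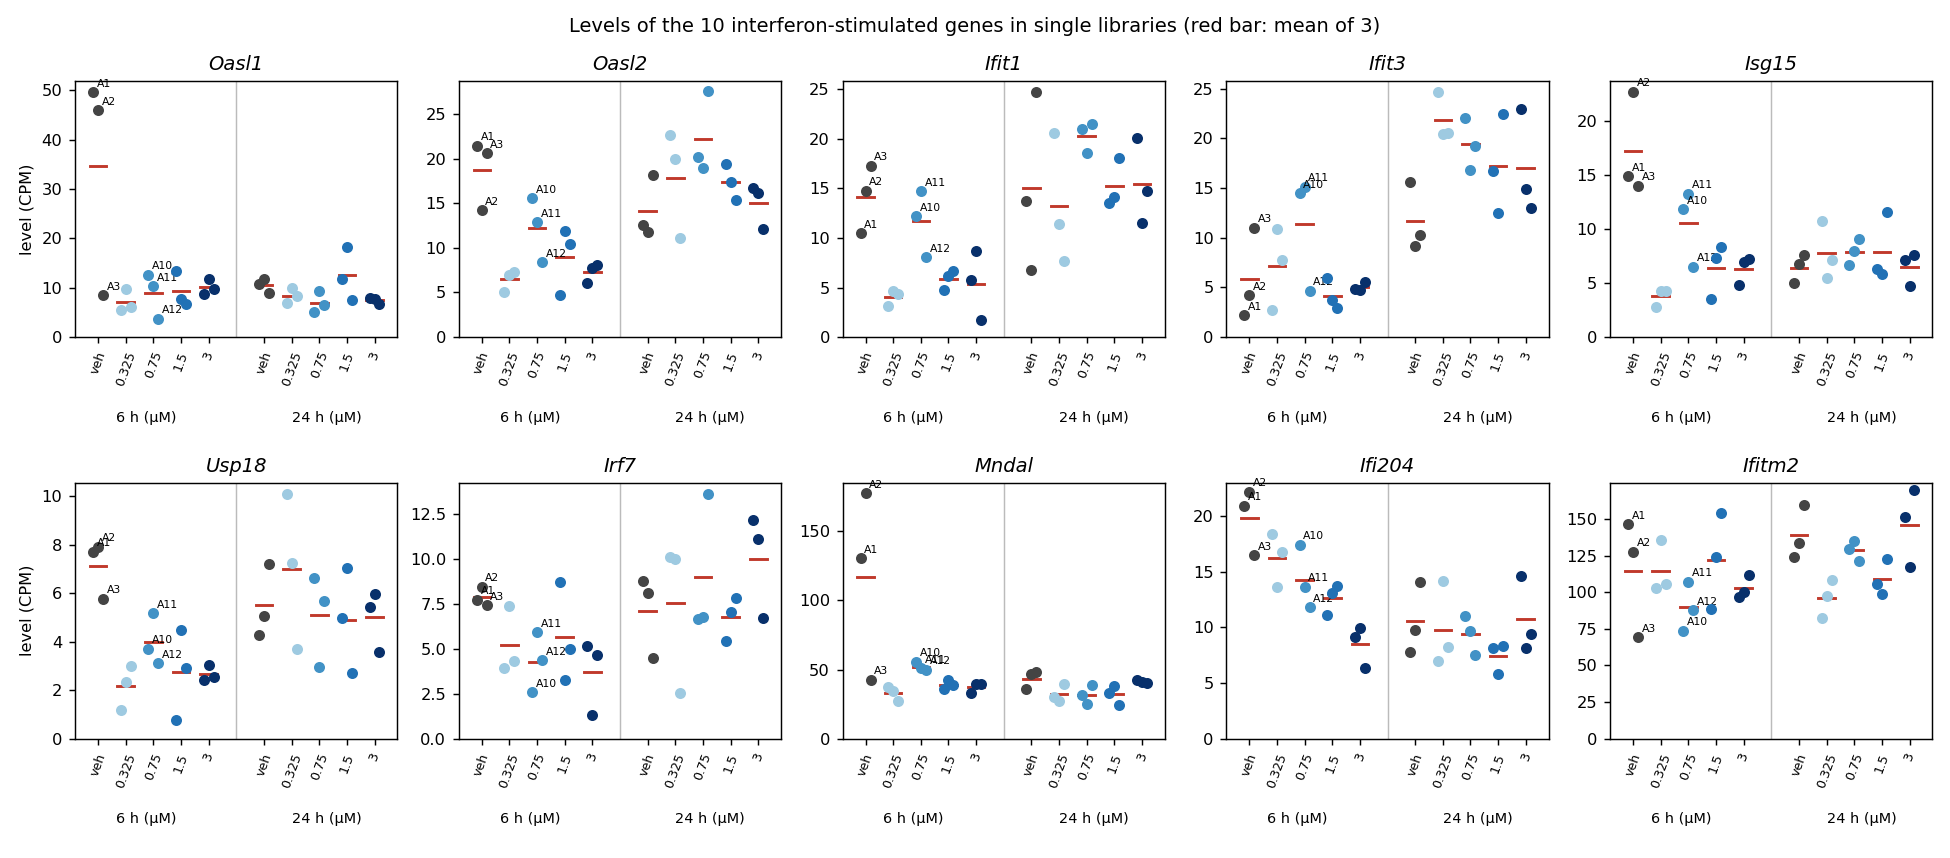
Level of each of the 10 genes (CPM, vertical axes from 0) in each library, by dose (veh is vehicle, doses in µM) at 6 h and 24 h, with a red bar at the mean of 3 libraries and the vehicle and 0.75 µM libraries of 6 h named. Oasl1 and Mndal stand high in A1 and A2 alone, and all CBD-treated libraries of Isg15 and Usp18 at 6 h lie below the vehicle.

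Because A1 and A2 stood apart from A3, the comparison was repeated without them, an alternative chosen after the values were seen. It leaves A3 as the only vehicle library, assumed to vary like the other groups. In that fit 582 of 13214 genes were called (4.4%), against 90 of 12012 with all libraries. *Oasl2* and *Ifit1* remained lower with CBD, with log2 fold changes of −1.27 (FDR = 0.0623) and −1.47 (FDR = 0.0603). *Isg15* was at −1.14 and no longer passed (FDR = 0.158). *Oasl1* was at 0.04 (FDR = 0.978) and *Mndal* at −0.09 (FDR = 0.889), so the calls of these 2 genes rested on A1 and A2. Their single-dose calls went too. *Mndal* was at −0.35 at 0.325 µM (FDR = 0.515), −0.12 at 1.5 µM (FDR = 0.874) and −0.18 at 3 µM (FDR = 0.832), and *Oasl1* at −0.25 at 0.325 µM (FDR = 0.873). In their place, *Isg15*, *Oasl2* and *Ifit1* were called lower at 0.325 µM (4.09% of all genes called in either direction), and *Ifitm2* was called higher at 1.5 µM (0.82, FDR = 0.0915, 3.97% of all genes called in either direction). Without A3 instead, *Oasl1* was at −2.44 and *Mndal* at −1.95. *Ifit3* was at −0.76 without A1 and A2 and at 0.985 without A3, and it passed in neither.

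The single libraries of 6 h also differed within a dose. At 0.75 µM, A10 and A11 were above A12 in *Isg15* (11.8 and 13.3 CPM against 6.52 CPM), in *Ifit1* (12.2 and 14.75 CPM against 8.07 CPM), in *Ifit3* (14.4 and 15.1 CPM against 4.66 CPM), in *Oasl1* (12.6 and 10.3 CPM against 3.73 CPM) and in *Oasl2* (15.55 and 12.9 CPM against 8.39 CPM). They were also above it in *Usp18*, *Mndal* and *Ifi204*. In *Irf7* and *Ifitm2*, A10 was below A12 (2.59 against 4.35 CPM, and 73.7 against 87.9 CPM) and A11 above it. Ranked by the mean log2 CPM of the 10 genes, A2, A1 and A3 came first, followed by A11 and A10. The 0.325 µM library A13 came last. Without A10 and A11, also chosen after the values were seen, A12 is the only library at 0.75 µM. The 5 genes called with all libraries then had log2 fold changes over the 4 doses from −2.24 (*Oasl1*) to −1.29 (*Oasl2*).

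**Figure D3:**
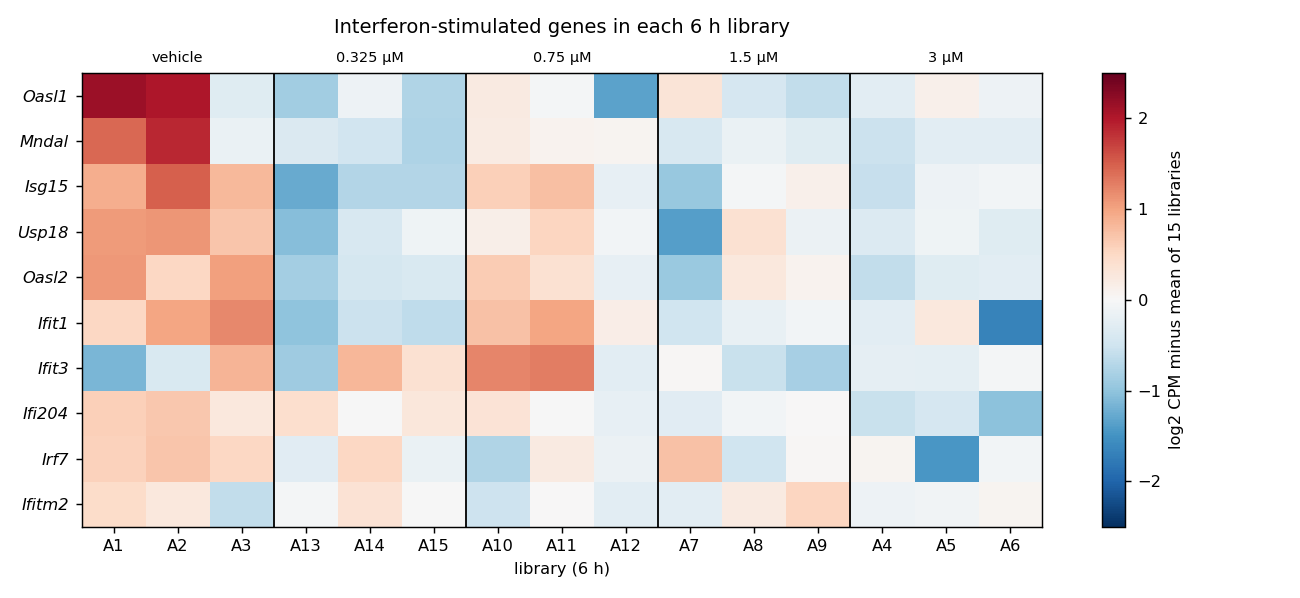
Log2 CPM of each gene in each 6 h library, minus the mean of that gene over the 15 libraries (colour scale), with libraries grouped by dose. Oasl1 and Mndal are deep red in A1 and A2 and pale elsewhere in vehicle and at 0.75 µM except Oasl1 in A12, while Ifit3 is blue in A1 and reddest in A10 and A11.

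Across the 15 libraries of 6 h, which share these depths and groups, the log2 levels of some pairs moved closely together. Pearson's r was 0.907 for *Isg15* and *Usp18*, 0.902 for *Oasl2* and *Usp18*, 0.90 for *Oasl2* and *Isg15*, and 0.839 for *Oasl1* and *Mndal*. After the group means were taken out, the same values were 0.791, 0.757, 0.679 and 0.758. In the last pair, A1 and A2 stood far above A3 in both genes. Relative to the mean of 15 libraries, the log2 levels of A1, A2 and A3 were 2.14, 2.03 and −0.3 for *Oasl1*. For *Mndal* they were 1.44, 1.88 and −0.16. No value of the pairs without A1 and A2 is given. *Ifit3* and *Ifitm2* went in opposite directions (r = −0.53). The 5 genes outside the list, among those at 10 CPM or more, whose log2 levels were most like the mean of the 10 genes were *Hmox1* (r = 0.935), *Plin2* (0.906), *Atf4* (0.896), *1700006J14Rik* (0.885) and *Sqstm1* (0.861). *Hmox1* encodes heme oxygenase, and *Atf4* the main transcription factor of the integrated stress response. Without A1 and A2, the libraries farthest from the median, these values were 0.926, 0.771, 0.751, 0.756 and 0.648. Spearman's rho over the 15 libraries was 0.854, 0.721, 0.957, 0.882 and 0.75. At 24 h, the genes most alike included *Mrpl51* (r = 0.793), *Rspo2* (0.787), *Rpl6* (0.786) and *Rp9* (0.785), and none of the genes named for 6 h was among the 5 most alike at 24 h. Without A16 and A27, the farthest libraries of 24 h, they were 0.749, 0.87, 0.762 and 0.637.

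By dose at 6 h, the comparisons with vehicle share the same 3 vehicle libraries. At 0.325 µM, *Isg15*, *Mndal* and *Oasl1* were called lower (3 of 10 genes, against 0.108% of all genes). Their log2 fold changes were −2.16 (standard error 0.41, FDR = 0.0333), −1.80 (0.30, FDR = 0.0333) and −2.24 (0.49, FDR = 0.0664). *Oasl2* (−1.54, FDR = 0.103) and *Ifit1* (−1.82, FDR = 0.113) lay just outside the threshold. At 0.75 µM, 0 of the 10 genes were called, against 0.0749% of all genes, while *Mndal* was at −1.14 and *Oasl1* at −1.94. DESeq2 called 2 there, and its share of all genes is not given here. At 1.5 µM, *Mndal* alone was called lower (−1.55, standard error 0.30, FDR = 0.0474; 0.0416% of all genes). At 3 µM, it was again *Mndal* alone (−1.62, standard error 0.30, FDR = 0.0378; 0.0416% of all genes). The calls at single doses depended on single libraries. The counts that follow stand without the share of all genes called in each fit. At 0.325 µM there were 0 without A2 or without A14. At 1.5 µM there were 0 without A2, A7, A8 or A9 and 2 without A3. At 3 µM there were 0 without A2, A4, A5 or A6, 4 without A3 and 2 without A14. At 0.75 µM there were 2 without A3.

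**Figure D4:**
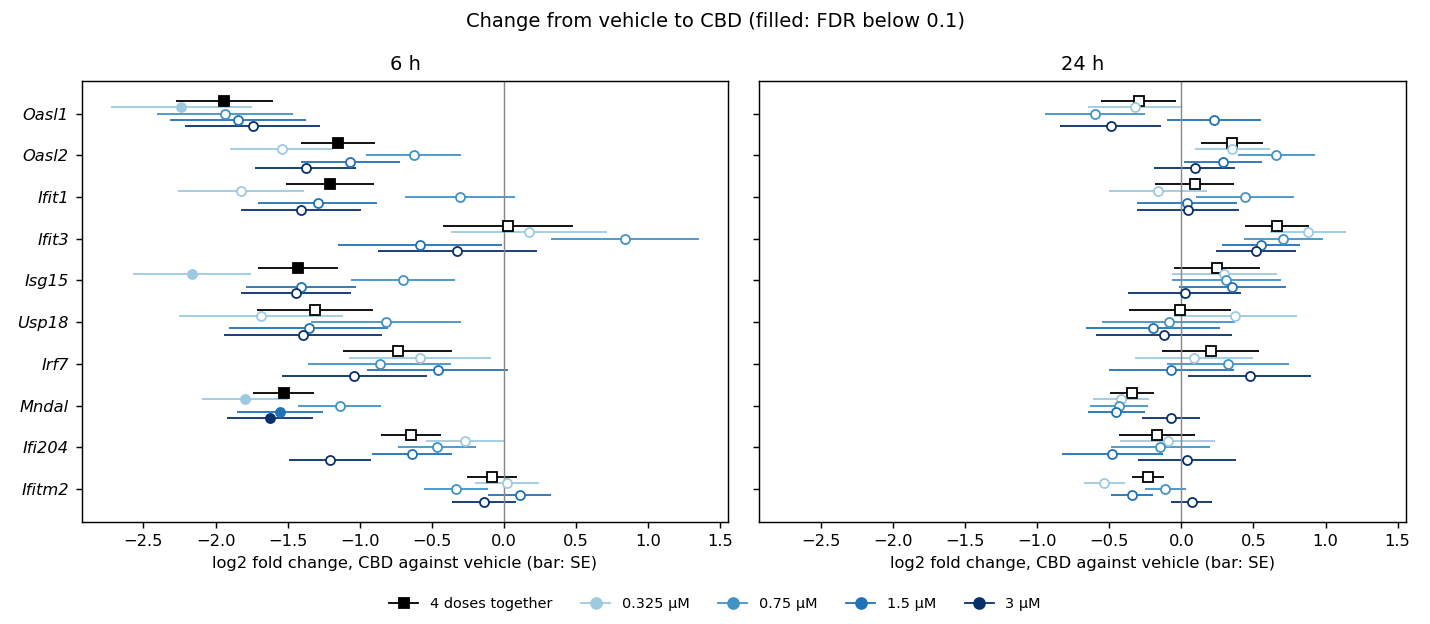
Log2 fold change, CBD against vehicle, of each gene at 6 h and 24 h, for the 4 doses together (squares) and for each dose (circles), with bars of 1 standard error and filled symbols for an FDR below 0.1. At 6 h the filled symbols all lie left of 0, and at 24 h no symbol is filled.

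Among the doses themselves, without the vehicle, no gene of the genome passed the test of any difference at 6 h (0%), and 0 passed the slope over log2 dose (0%). The mean of *Ifi204* was lower at each higher dose. It was 16.3 ± 2.45 CPM at 0.325 µM and 14.3 ± 2.85 CPM at 0.75 µM. At 1.5 µM it was 12.6 ± 1.39 CPM and at 3 µM 8.47 ± 1.88 CPM (SD, n = 3 each). Neighbouring doses overlapped except 1.5 µM and 3 µM. Its slope was −0.28 log2 units per doubling of the dose (standard error 0.08, unadjusted p = 0.00324, FDR = 0.996). *Oasl1* went the other way, with a higher mean at each higher dose, from 7.07 ± 2.30 CPM at 0.325 µM to 10.1 ± 1.47 CPM at 3 µM. The slope of *Oasl1* was 0.15 (standard error 0.15, FDR = 0.996). Of the 10 slopes, 6 were above 0 and 4 below. *Ifit1* and *Isg15* had unadjusted p-values of 0.00765 and 0.0139 in the test of any difference among doses, with the highest mean of both at 0.75 µM and the lowest at 0.325 µM (edgeR FDR = 0.9998 for both).

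After 24 h, 0 of the 10 genes were called over the 4 doses (0.107% of all genes), with 5 above 0, 5 below 0 and a median log2 fold change of 0.04. Nor was any called at 0.325 µM (0.066% of all genes), 0.75 µM (0.0825%), 1.5 µM (0.0413%) or 3 µM (0.00825%). At an unadjusted p below 0.05, 3 of the 10 passed in the comparison over the 4 doses, as did 815 of 12118 genes (6.73%). DESeq2 called 0 there and 1 at 0.325 µM, *Ifitm2*, and its shares of all genes are not given here. *Isg15* was at 4.98, 6.75 and 7.55 CPM in A28, A29 and A30 and at 4.69 to 11.6 CPM (median 7.11 CPM) with CBD, so that its groups overlapped. *Oasl1* was at 10.7, 11.8 and 8.92 CPM in vehicle, and *Mndal* at 35.8, 46.6 and 48.0 CPM. No vehicle library of 24 h reached the levels that A1 and A2 had of these genes at 6 h. The log2 fold change of *Mndal* was −0.34 (standard error 0.15, unadjusted p = 0.0321, FDR = 0.716). *Ifit3* was at 15.6, 9.12 and 10.3 CPM in vehicle and at 12.4 to 24.6 CPM (median 19.85 CPM) with CBD, and 9 of the 12 CBD-treated libraries lay above all vehicle libraries. Its log2 fold change of 0.66 (standard error 0.22) had an unadjusted p of 0.00537 and an FDR of 0.508. With each library's percentage of reads outside genes in the model, the change of *Ifit3* was 0.342, and that of *Ifitm2* over the 4 doses went from −0.23 to −0.04.

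*Ifitm2* was the only gene of the 10 called in a test over doses at 24 h. It was at 82.4, 97.4 and 108 CPM at 0.325 µM, at 129.5, 135 and 122 CPM at 0.75 µM, at 105, 99.1 and 123 CPM at 1.5 µM and at 151, 117 and 169.7 CPM at 3 µM. The vehicle was at 124, 134 and 159.5 CPM. The 3 µM libraries were thus all above the 0.325 µM libraries, whereas 1.5 µM overlapped both of these doses and 0.75 µM overlapped 3 µM. Its slope was 0.15 log2 units per doubling of the dose (standard error 0.04, FDR = 0.0758, where 2.15% of all genes were called with a slope above 0). The test of any difference among doses gave an FDR of 0.0918 (1.93% of all genes). Both calls depended on single libraries: the slope lost its call without A16, A18, A21, A22, A23, A24, A25 or A26. With each library's percentage of reads outside genes added to the model, the difference among doses had an FDR of 0.654. That percentage was 20.8% to 21.7% at 3 µM and 19.1% to 19.6% at 0.325 µM. In addition, 41.9% of the stretches of 50 bases in the last 500 bases of *Ifitm2* transcripts also occur in transcripts of other genes, among them *Ifitm3*.

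The same genes were then compared between the times, with vehicle and CBD-treated libraries apart. For these comparisons, CPM were normalized over all 30 libraries. In vehicle, *Isg15*, *Mndal*, *Oasl1* and *Ifi204* were lower at 24 h than at 6 h (4 of 10 genes, against 14.2% of all genes called lower). *Isg15* went from 17.4 ± 4.84 to 6.31 ± 1.29 CPM (SD, n = 3; log2 fold change −1.46, standard error 0.36, FDR = 0.00364). *Mndal* went from 118 ± 69.2 to 42.7 ± 6.54 CPM (log2 fold change −1.45, standard error 0.26, FDR = 0.000162). *Oasl1* had a log2 fold change of −1.72 (standard error 0.41, FDR = 0.00286) and *Ifi204* one of −0.95 (standard error 0.29, FDR = 0.0186), a call lost without A28 (FDR = 0.13). The changes of *Mndal* and *Oasl1* came with the high levels of A1 and A2. In A3 at 6 h, *Mndal* was at 43.0 CPM and *Oasl1* at 8.61 CPM, against 35.2 to 47.1 CPM and 8.75 to 11.6 CPM in the 24 h vehicle. Without A1 and A2, *Mndal* was at −0.01 (FDR = 0.987), *Oasl1* at 0.27 (FDR = 0.772) and *Ifi204* at −0.69 (FDR = 0.243). *Isg15* remained called (−1.17, FDR = 0.0830), and *Ifitm2* was called higher at 24 h (0.97, FDR = 0.00507), where 23% of all genes were called.

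In CBD-treated cells, *Ifit3*, *Ifit1*, *Oasl2*, *Usp18* and *Irf7* were higher at 24 h than at 6 h (5 of 10 genes, against 26% of all genes called higher), and *Ifi204* was lower (1 of 10, against 27.6% called lower). *Ifit3* went from 7.03 ± 4.34 to 18.6 ± 3.93 CPM (SD, n = 12; log2 fold change 1.51, standard error 0.21, FDR = 2.12e-07). *Ifit1* went from 6.82 ± 3.78 to 15.8 ± 4.45 CPM (log2 fold change 1.32, standard error 0.21, FDR = 1.85e-06). *Oasl2* went from 8.88 ± 3.34 to 17.9 ± 4.47 CPM (log2 fold change 1.04, standard error 0.16, FDR = 1.16e-06). The changes of *Usp18* and *Irf7* were 0.90 and 0.78. Many genes outside the list were also called higher at 24 h, and the count of 5 stands beside that share.

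The change from vehicle to CBD differed between the times for *Oasl2* and *Isg15* (2 of 10 genes, against 0.125% of all genes called in that direction). The difference, 24 h minus 6 h, was 1.50 on the log2 scale for *Oasl2* (standard error 0.34, FDR = 0.0656) and 1.68 for *Isg15* (standard error 0.41, FDR = 0.0928). *Mndal* had a difference of 1.19 (standard error 0.30, FDR = 0.107), just outside the threshold, and for 9 of the 10 genes the difference was above 0. Without 1 library at a time, between 0 and 3 of the 10 genes were called, and the share of all genes called in each fit is not given here. *Oasl2* lost its call without any of 9 of the 30 libraries (FDR up to 0.231), and *Isg15* without any of 18 (FDR up to 0.462). Without A1 and A2, *Oasl2* was at 1.63 (FDR = 0.0372), *Isg15* at 1.40 (FDR = 0.169) and *Mndal* at −0.24 (FDR = 0.731), and 2.51% of all genes were called.

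The rest of the pathway was examined in lists of genes chosen with earlier results of these data known. Of 21 interferon genes, 18 had 0 reads in all 30 libraries together. For each of them, 0 of 84273080 reads allows 3 reads, or 0.0356 CPM, and this limit covers counting error only. Reads that map to several places were not counted, and sequence shared between interferon genes was not examined. *Ifnk* had 1 read, *Ifna13* had 3 and *Ifnz* had 11, while *Ifnb1* had none. The receptors and signal carriers were present: *Ifnar2* was at 34.2 ± 9.44 CPM and *Jak1* at 208 ± 6.99 CPM in the 6 h vehicle (SD, n = 3). None of the 11 measured genes of receptors, JAK kinases and STAT proteins was called at 6 h. *Stat3* (0.44, FDR = 0.138) had a log2 fold change above 0, and *Ifnar1* (−0.61, FDR = 0.462) had one below 0. At 24 h, *Stat3* had a negative slope over dose (−0.18, standard error 0.04, FDR = 0.0381), where 119 of 12118 genes were called with a slope below 0. *Irf1* differed among doses (FDR = 0.0791), as did 1.93% of all genes. How these calls depend on single libraries or on the share of reads outside genes is not given here.

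Of 45 other inducible effectors measured at 6 h, 0 were called and 36 had a log2 fold change below 0. Their median was −0.23, against −0.02 over all genes tested. These changes rest on the same 3 vehicle libraries, and no values of the effectors without A1 and A2 are given. The lowest were *Ifi44* (−1.38, FDR = 0.140), *Oas3* (−1.34, FDR = 0.251) and *Rsad2* (−1.28, FDR = 0.248), the last of which encodes viperin, an inhibitor of viral replication. 5 of the 45 had an unadjusted p below 0.05, each with a log2 fold change below 0, while 10.3% of all genes passed at that level. At 24 h the 48 measured effectors were split evenly, with 24 above and 24 below 0 and a median of 0.01. Of 4 other PYHIN genes, *Aim2*, a sensor of DNA in the cytosol, was called lower at 6 h (−1.23, standard error 0.32, FDR = 0.0924). *Aim2* was at 6.06 to 13.7 CPM in vehicle and at 2.37 to 6.49 CPM with CBD, with 11 of 12 CBD-treated libraries below the vehicle, and it lost its call without any of 12 single libraries. Of the genes measured at 6 h outside the 10, none of 6 interferon regulatory factors, 10 negative regulators, 4 genes of ISG15 conjugation and 3 of the Ifitm family was called. Among 14 sensors of nucleic acids and their adaptors, *Aim2* was the only call.

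**Figure D5:**
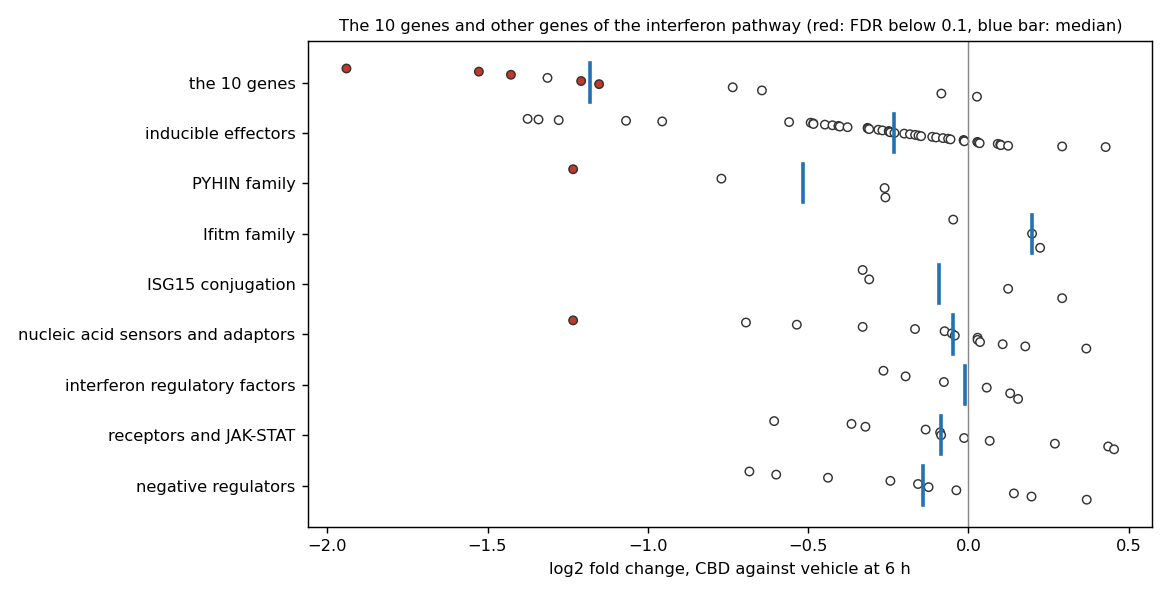
Log2 fold change, CBD against vehicle at 6 h, of the 10 genes and of the other measured genes of each list (members left out), with red points for an FDR below 0.1 and a blue bar at the median. The median of the 10 genes is −1.18, that of 45 other inducible effectors is −0.23, and Aim2 stands in both the PYHIN list and the list of sensors.

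The genes lie on 6 chromosomes (GRCm38, GENCODE M21). *Oasl1* (chr5:114923240-114937915) and *Oasl2* (chr5:114896936-114912234) lie near each other, as do *Ifit1* (chr19:34640871-34650009) and *Ifit3* (chr19:34583531-34588731). *Mndal* (chr1:173849126-173942491) and *Ifi204* (chr1:173747293-173766943) lie close together, *Isg15* is at chr4:156199424-156200818, *Usp18* at chr6:121245906-121270917, *Irf7* at chr7:141262706-141266481 and *Ifitm2* at chr7:140954837-140955987. Over the vehicle libraries of 6 h, both *Ifit1* and *Ifit3* were lowest in A1 and highest in A3. Reads that map to several places were not counted. Of the stretches of 50 bases in the last 500 bases of the transcripts, 25.9% of those of *Mndal* occur in other genes of its family and 14.9% of those of *Ifit3* occur in *Ifit3b*, against at most 1.77% in *Oasl1*, *Oasl2*, *Ifit1*, *Isg15*, *Ifi204*, *Irf7* and *Usp18*. *Mndal* overlaps *Gm38050*, *Ifi203* and *Ifi211* on its own strand, and *Ifitm2* overlaps *Gm45717* on its own strand. *Oasl1*, *Irf7* and *Usp18* each overlap a gene on the opposite strand. Reads of such partners cannot be told apart here.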

How the data were processed

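The authors trimmed the reads with Flexbar, mapped them to GRCm39 with STAR 2.7.5c and counted them per Ensembl gene with HTSeq 1.99.2 (versions per the submitters' processing notes). The deposited files hold raw read counts, 1 table per library. Whether strand was used in counting is not given in the sources used here. The 5 summary lines of each table were left out of the gene counts.

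The counts of each time (15 libraries, a mean per group) were fitted with edgeR 4.0.16 in R 4.3.3 after filterByExpr and TMM, and tested by the quasi-likelihood F-test. The Benjamini-Hochberg adjustment covered every gene tested, with a threshold of 0.1, as in the methods of the study. Tests between the times used all 30 libraries and 12790 genes. Log2 CPM used a prior count of 2, intervals are 1.96 standard errors, and standard errors were taken as the log2 fold change divided by the root of F.

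The genes and lists were chosen with earlier results of these data known. Named genes are the 10, other list genes that were called in a comparison or are the 2 most abundant of a list, and the 5 most alike per time, and some genes that these rules name are not reported here. Genes with an unadjusted p below 0.05 and interferon genes with reads were named after their values were seen. Alternatives were RLE, no filter, at least 10 counts in every library, DESeq2 1.42.0, each library's percentage of reads outside genes as a covariate, only the 6 libraries compared, CPM without TMM and each library left out. The steps were tested on simulated data. Common biological variation was 0.179 at 6 h and 0.15 at 24 h, and library depths were 1839621 to 4420675 reads.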

Additional observations from a re-analysis of the deposited data

Results flagged for a closer look

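Flagged here are 2 results, because the change from vehicle to CBD differed between 6 h and 24 h by a test of the difference itself (edgeR, all 30 libraries, Benjamini-Hochberg over 12790 genes). For *Oasl2* the change at 24 h minus that at 6 h was 1.50 on the log2 scale (FDR = 0.0656). At 6 h its CBD-treated libraries had a mean of 8.88 CPM against 19 CPM in vehicle, and at 24 h 17.9 CPM against 13.9 CPM. For *Isg15* the same difference was 1.68 (FDR = 0.0928), with 6.85 CPM against 17.4 CPM at 6 h and 7.41 CPM against 6.31 CPM at 24 h. Both calls depended on single libraries. Without 1 of the 30 libraries at a time, *Oasl2* ranged from 1.40 to 1.71 and lost its call in 9 cases (FDR up to 0.231), and *Isg15* ranged from 1.43 to 1.82 and lost it in 18 (FDR up to 0.462). Without A1 and A2, *Oasl2* was at 1.63 (FDR = 0.0372) and *Isg15* at 1.40 (FDR = 0.169). In the alternatives that kept all libraries, the difference of *Oasl2* stayed between 1.47 and 1.51 and that of *Isg15* between 1.64 and 1.68.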

How the results depend on the processing

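Most counts below stand without the share of all genes called in that setting. A higher count may go with more calls over all genes and is not by itself a result about the 10. For the 4 doses together at 6 h, 5 of the 10 genes were called. With at least 10 counts in every library, 3 were called, since fewer genes could be tested. Without A1 and A2, 2 were called (4.4% of all genes). Without 1 library at a time, 3 (without A2) to 5 were called. *Isg15* lost its call without A2, *Oasl2* without A1 and *Ifit1* without any of 7 libraries. At 0.325 µM (3 called), there were 5 without a filter, 5 with DESeq2, 5 with each library's percentage of reads outside genes as a covariate, 0 from only the 6 libraries compared and 0 to 4 without 1 library. At 0.75 µM (0 called), there were 2, 2 and 2 under the first 3 of these settings and 0 to 2 without 1 library. At 1.5 µM (1 called), there were 2 without a filter, 3 with the covariate, 0 from 6 libraries and 0 to 2 without 1 library. At 3 µM (1 called), there were 3 without a filter, 2 with DESeq2, 3 with the covariate, 0 from 6 libraries, 0 without A1 and A2, and 0 to 4 without 1 library. At 24 h, 0.325 µM (0 called) gave 1 without a filter and 1 with DESeq2. The difference among doses at 24 h (1 called) gave 0 with the covariate and 0 to 1 without 1 library, and the slope 0 to 1. For the CBD effect between times (2 called), there were 4 without a filter, 1 with at least 10 counts and 0 to 3 without 1 library. For vehicle over time (4 called), there were 2 without A1 and A2 and 3 (without A28) to 5 without 1 library. For CBD-treated libraries over time (6 called), there were 2 with at least 10 counts. Apart from these filters, the causes were not tested.

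At 6 h, the log2 fold change of *Ifitm2* was 0.0342 with the covariate, 0.63 without A1 and A2, and −0.361 to 0.139 without 1 library. That of *Ifit3* was −0.762 without A1 and A2, −0.282 without A10 and A11, and −0.314 to 0.985 without 1 library. Without A1 and A2, *Oasl1* was at 0.0443 over the 4 doses, 0.0443 at 0.75 µM, 0.138 at 1.5 µM and 0.241 at 3 µM, and *Mndal* at 0.293 at 0.75 µM. *Oasl1* was then at 0.266 for vehicle over time and −0.326 for the CBD effect between times, and *Mndal* at −0.242 for the latter. *Aim2* ranged from −1.48 to −0.995 without 1 library. Leaving out A1 and A2, or A10 and A11, was chosen after seeing the data. No paired analysis was possible because A1 to A30 are numbered through and no number recurs in another group. The slope was not run with the covariate. Counts of 2 to 110 reads per library for *Usp18*, *Irf7*, *Ifit1*, *Ifit3*, *Isg15*, *Oasl1*, *Oasl2* and *Ifi204* limit the precision of single libraries.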
